A study of Mus musculus with 2 samples.

Results

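The 10 genes described here make, sense and remove prostaglandins, and were taken by gene symbol from the 37309 genes of the deposited table. They are the cyclooxygenases Ptgs1 and Ptgs2, the terminal synthases Ptges and Ptgis, the PGE2 receptors Ptger1, Ptger2, Ptger3 and Ptger4, the degrading enzyme Hpgd and the uptake carrier Slco2a1. The genes were chosen by a reading of their levels in these same libraries, so their differences are given as a description and without a test.

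Prostaglandins are short-lived lipid mediators made from arachidonic acid. A phospholipase frees the acid from membranes, a cyclooxygenase converts it to the common precursor PGH2, and a terminal synthase turns PGH2 into a single product such as PGE2 or prostacyclin (PGI2). PGE2 acts through the receptors EP1 to EP4, is taken up into cells by a carrier and is inactivated inside them by 15-hydroxyprostaglandin dehydrogenase. In the gut, stromal cells next to the crypts are a known source of PGE2, which acts on the epithelium and is best known there for its part in repair and tumor growth.

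The samples were cultured intestinal subepithelial myofibroblasts (ISEMFs), the contractile stromal cells beneath the epithelium, isolated from the small intestine of wild type C57BL/6 mice. Neonatal mice gave the supportive population and adult mice the non-supportive one, each with 1 library, and the names neonatal and adult below stand for the supportive and the non-supportive library. The names refer to how well each population sustained enteroids, which are intestinal epithelial cultures, without added R-spondin. By the study's methods, both populations were obtained and cultured by the same protocol, in medium with serum, insulin, transferrin and EGF. With 1 library per population there is no replicate check, and the population, the age of the mice, the separate isolations and any difference in culture passage cannot be told apart. The number of mice behind each library is not given in the sources used here. The deposited names of the libraries carry differing tags, a P and a number, which the sources used here do not explain, so the passage of each culture is not known and may have differed.

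Reads assigned to genes numbered 50674472 for neonatal and 49615497 for adult cells. RPKM scales the reads of a gene to its exon length and to the size of the library. All intervals below are 95% exact Clopper-Pearson intervals from the reads of a gene in both libraries, and they cover counting error only. All 8 genes of the myofibroblast and smooth muscle list, Acta2, Vim and Des among them, were detected in both libraries, with summed RPKM values of 2297 in neonatal and 3376 in adult cells. The study reported high Acta2 and vimentin but low desmin, the product of Des, for both populations. Of the 8 genes, 3 were 2-fold lower in neonatal cells (9.27% over all genes at 1 RPKM in either library) and 0 were higher (9.01%). The lower genes were Des (0.575 against 3.40 RPKM), Myh11 (26.3 against 108.2 RPKM) and Cnn1 (78.6 against 186.6 RPKM). Their part in the differences described below was not tested. The defining macrophage genes differed between the libraries. All 12 had more reads in adult cells, their summed RPKM was 9.56 in neonatal and 130.7 in adult cells, and 5 of them had 0 reads in neonatal cells. In bulk RNA, fewer cells of a type and less RNA per cell cannot be told apart.

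The cyclooxygenase mRNAs and the PGE2 synthase Ptges were 12.9-fold to 81.2-fold lower in supportive ISEMFs, while the prostacyclin synthase Ptgis was higher. Of the 10 genes, 5 reached 1 RPKM in neonatal or adult cells. Of these 5, Ptgs1, Ptgs2 and Ptges were 2-fold or more lower in supportive ISEMFs and Ptgis was 2-fold or more higher, and Ptges reached 1 RPKM only in adult cells. Over all 10086 genes that reached 1 RPKM in neonatal or adult cells, 9.27% were 2-fold lower and 9.01% were 2-fold higher. The contrast is the one by which the genes were chosen, so nothing is read from these counts.

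**Figure D1:**
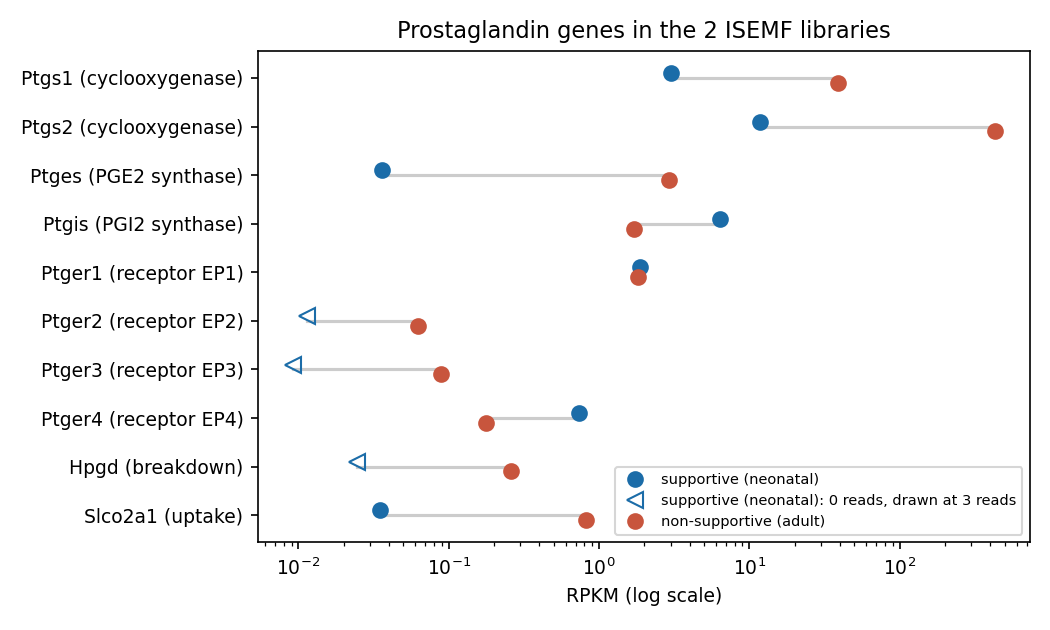
RPKM of each gene on a log scale in neonatal, supportive cells (blue) and adult, non-supportive cells (red), with open triangles where neonatal cells had 0 reads, drawn at the RPKM of 3 reads. Ptgs2 reached 428.7 RPKM in adult cells, and Ptgis and Ptger4 are the genes whose blue point lies clearly to the right of the red one.

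Ptgs2 (ENSMUSG00000032487) encodes COX-2, the inducible cyclooxygenase. It lies on chromosome 1 of mm9 between 151947254 and 151955140, plus strand, and its exons form 10 separate blocks. Ptgs2 had 3478 reads (11.7 RPKM) in neonatal cells, and 123351 reads (428.7 RPKM) in adult cells. By RPKM it stood at rank 25 of the 22379 protein-coding genes in adult cells and at rank 1984 in neonatal cells. The RPKM was 36.5-fold lower in supportive ISEMFs (interval, 35.3 to 37.8), and the log2 ratio of -5.18 was the lowest among the 10 genes. Log2 ratios here are of supportive over non-supportive RPKM with 0.1 added to each, which brings the log2 ratios of weakly expressed genes closer to 0. Ptgs2 mRNA is also made by activated macrophages. The most abundant macrophage genes were at 72.7 RPKM (Lyz2) and 29.97 RPKM (Tyrobp) in adult cells, and at 6.31 and 0 in neonatal cells. The part of the macrophage genes, summed at 9.56 RPKM in neonatal and 130.7 RPKM in adult cells, in the values of Ptgs2, Ptgs1, Ptges, Hpgd, Slco2a1 and Il1a was not tested.

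Ptgs1 (ENSMUSG00000047250) encodes COX-1, the cyclooxygenase that many cells express without induction. It lies on chromosome 2 between 36085946 and 36107792, plus strand. Ptgs1 had 1282 reads (3.005 RPKM) in neonatal cells, against 16039 reads (38.7 RPKM) in adult cells. It was 12.9-fold lower in supportive ISEMFs (interval, 12.2 to 13.6), a log2 ratio of -3.64. Both cyclooxygenases were therefore lower in supportive ISEMFs, and the interval of Ptgs1 does not overlap that of Ptgs2.

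Ptgs2 was the more abundant cyclooxygenase mRNA per length in each library. It made 79.6% of the summed RPKM of Ptgs1 and Ptgs2 in neonatal cells and 91.7% in adult cells. The sum itself was 14.8 RPKM in supportive and 467 RPKM in non-supportive ISEMFs, a 31.7-fold difference.

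Ptges (ENSMUSG00000050737) encodes the inducible microsomal PGE2 synthase. Its gene spans chromosome 2 between 30744991 and 30785383, minus strand. Ptges had 22 reads (0.0358 RPKM) in neonatal cells, and 1735 reads (2.90 RPKM) in adult cells. It was 81.2-fold lower in supportive ISEMFs, and the few reads of the supportive library set the width of the interval, 53.4 to 129.8. The log2 ratio of -4.47 was closer to 0 than that of Ptgs2 although the fold difference was larger, because 0.1 was added to a value of 0.0358.

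Ptgis (ENSMUSG00000017969) encodes prostacyclin synthase and lies on chromosome 2 between 167017305 and 167066104, minus strand. It had 1307 reads (6.33 RPKM) in neonatal cells, and 343 reads (1.71 RPKM) in adult cells. Ptgis was thus 3.70-fold higher in supportive ISEMFs (interval, 3.29 to 4.18), a log2 ratio of 1.83. In GENCODE vM1, 6.08% of its exon bases are shared with the noncoding 1110018N20Rik. Of the 5 genes that reached 1 RPKM it was the gene with the highest log2 ratio.

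The order of Ptges and Ptgis differed between the libraries. In supportive ISEMFs Ptges made 0.562% of the summed RPKM of Ptges and Ptgis, and Ptgis was at 177-fold the RPKM of Ptges. In non-supportive ISEMFs Ptges made 62.9% of the sum, at 1.70-fold the RPKM of Ptgis. This sum leaves out the PGE2 synthase genes Ptges3, described below, and Ptges2, named here for its role. Ptges3 was at 9.38 RPKM in neonatal and 11.6 in adult cells, and Ptges2 at 0.670 and 0.668. RPKM levels depend on the annotated length of each gene. The deposited table gives Ptges an exon length of 8608 bases, where GENCODE vM1, also on mm9, has 3933. With the shorter length, the RPKM of Ptges in adult cells would be 6.35. The lengths of Ptgs1, Ptgis and Ptger4 differ as well. For Ptgs1, 3884 bases in place of 5970 would give 4.62 RPKM in neonatal and 59.5 in adult cells. Ratios of a single gene between the libraries do not depend on the length, whereas sums over genes and shares do.

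**Figure D2:**
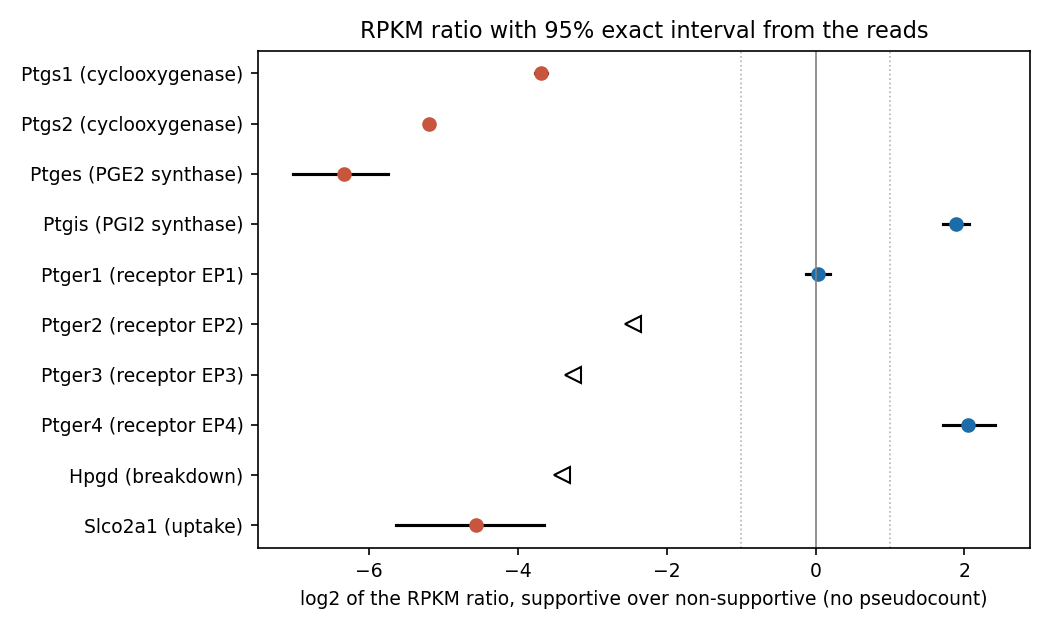
Log2 of the RPKM ratio of supportive over non-supportive ISEMFs without a pseudocount, with bars for the 95% exact interval from the reads. Points are blue above 0 and red below 0, and open triangles mark genes with 0 neonatal reads, drawn at the ratio for 3 reads. Dotted lines mark 2-fold, and the interval of Ptger1 alone spans 0.

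The sequences before the starts of Ptgs2, Ptgs1 and Ptges are shown because these are the 3 genes that were 2-fold lower in supportive ISEMFs. Each is the run of 250 bases just before the most upstream start of a protein-coding transcript in GENCODE vM1, read from the mm9 genome (NCBIM37) on the strand of the gene, 5′ to 3′. The windows are chr1:151947004-151947253 for Ptgs2, plus strand, chr2:36085696-36085945 for Ptgs1, plus strand and chr2:30758820-30759069 for Ptges, minus strand. For Ptges a noncoding transcript is annotated as starting further upstream. Capitals mark matches, on either strand, to the 6 motifs named after the sequences.
Ptgs2: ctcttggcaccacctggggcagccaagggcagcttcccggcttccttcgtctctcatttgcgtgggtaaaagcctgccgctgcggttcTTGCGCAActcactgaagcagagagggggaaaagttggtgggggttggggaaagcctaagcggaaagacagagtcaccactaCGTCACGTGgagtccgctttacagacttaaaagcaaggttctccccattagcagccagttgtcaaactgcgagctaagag
Ptgs1: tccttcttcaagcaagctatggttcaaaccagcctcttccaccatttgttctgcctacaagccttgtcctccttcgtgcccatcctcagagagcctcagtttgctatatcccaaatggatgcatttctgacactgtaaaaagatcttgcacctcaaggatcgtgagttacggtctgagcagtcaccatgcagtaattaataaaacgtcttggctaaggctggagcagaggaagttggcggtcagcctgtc
Ptges: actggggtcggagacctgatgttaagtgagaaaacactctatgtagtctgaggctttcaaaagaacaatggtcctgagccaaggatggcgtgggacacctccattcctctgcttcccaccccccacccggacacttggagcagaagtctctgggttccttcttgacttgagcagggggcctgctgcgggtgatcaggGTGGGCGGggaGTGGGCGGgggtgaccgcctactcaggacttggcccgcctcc

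The 6 motifs were searched on both strands. The C/EBP site, spelled TTGCGCAA, was in 0.183% of the same windows of 22367 protein-coding genes, and the Ptgs2 window held it 162 to 155 bases before the start. The core of the cAMP response element (CRE), spelled TGACG, was in 19.4% of all windows. The Ptgs2 window held it in the minus direction 80 to 76 bases before the start, where it overlaps an E-box at 77 to 72. The letters of the E-box, CACGTG, were in 6.53% of all windows. The core of the site bound by Egr factors, spelled GTGGGCG, was in 8.46% of all windows, and the Ptges window held it at 53 to 47 and again at 42 to 36 bases before the start. Each of these Egr cores overlaps a GC box, a motif spelled GGGCGG that was in 40.1% of all windows. The TATA box was searched as TATAAA, which was in 12.3% of all windows and in none of the 3 printed here. The Ptgs1 window held none of the 6 motifs. A match is a description of the letters and not of binding.

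The next gene upstream of Ptgs2 is the long intergenic noncoding RNA 7530420F21Rik, which runs in the opposite direction, on the minus strand, between 151922003 and 151947004. Between both genes lie 249 bases, so the Ptgs2 window above covers the whole space between them and the first base of 7530420F21Rik. 7530420F21Rik had 23 reads (0.0750 RPKM) in neonatal cells against 660 reads (2.22 RPKM) in adult cells. It was 29.5-fold lower in supportive ISEMFs (interval, 19.5 to 46.9), in the same direction as Ptgs2. This gene was added for its position.

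The PGE2 receptors differed in direction. Ptger1 was at a like level in both libraries, Ptger4 was higher in supportive ISEMFs, and Ptger2 and Ptger3 had few reads in adult cells and 0 in neonatal cells.

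Ptger4 (ENSMUSG00000039942) encodes EP4, a receptor that raises cAMP. The gene is on chromosome 15 between 5156661 and 5194187, minus strand. Ptger4 had 376 reads (0.737 RPKM) in neonatal cells and 88 reads (0.178 RPKM) in adult cells. It was 4.15-fold higher in supportive ISEMFs (interval, 3.28 to 5.30), although both RPKM values were under 1. Ptger4 and Ptgis were thus both higher where the cyclooxygenases were lower. In GENCODE vM1, 16.5% of the exon bases of Ptger4 are shared with Ttc33 and the pseudogene Gm15937.

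Ptger1 (ENSMUSG00000019464) encodes EP1, a receptor that raises intracellular calcium. It lies on chromosome 8 between 86190732 and 86196652, plus strand. Ptger1 had 660 reads (1.86 RPKM) in neonatal cells and 628 reads (1.82 RPKM) in adult cells. A difference was not detectable at this depth, with a ratio of 1.02 and an interval from 0.914 to 1.14.

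Ptger2 (ENSMUSG00000037759) encodes EP2, which raises cAMP as EP4 does, and Ptger3 (ENSMUSG00000040016) encodes EP3, which lowers it. They lie on chromosome 14 between 45607870 and 45623495 and on chromosome 3 between 157229856 and 157307722, both plus strand. Ptger2 had 0 reads in neonatal cells and 16 reads, 0.0625 RPKM, in adult cells. Ptger3 had 0 and 28 reads, the latter 0.0885 RPKM. With 3 reads put in place of 0, which is 0.0114 RPKM for Ptger2 and 0.00921 for Ptger3, they were 5.49-fold and 9.60-fold lower in supportive ISEMFs. The lower limits of the exact intervals were 3.97-fold for Ptger2 and 7.31-fold for Ptger3. Ptger2 and Ptger3 were near the limit of detection in each library.

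Summed over EP1 to EP4, the RPKM was 2.60 in neonatal and 2.15 in adult cells. Ptger1 made 71.6% of that sum in neonatal cells and 84.7% in adult cells, and Ptger4 made 28.4% and 8.25%. Between the cAMP-raising receptors, Ptger4 was the one detected in both libraries.

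**Figure D3:**
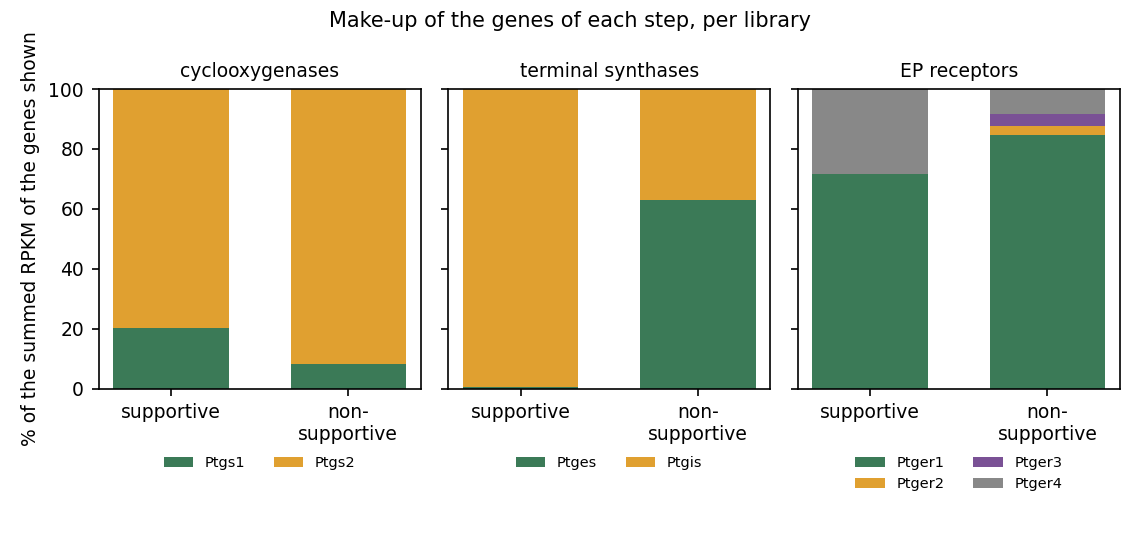
Stacked bars of the share of each gene in the summed RPKM of the cyclooxygenases, the terminal synthases (Ptges and Ptgis only) and the EP receptors, for supportive (neonatal) and non-supportive (adult) ISEMFs. Ptges makes 62.9% of the terminal synthase sum in adult cells and 0.562% in neonatal cells, and the share of Ptger4 is 28.4% in neonatal and 8.25% in adult cells.

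The genes that remove PGE2 were low in both libraries and lower in supportive ISEMFs. Slco2a1 (ENSMUSG00000032548) encodes the prostaglandin transporter, which carries PGE2 into cells. The gene is on chromosome 9 between 102910817 and 102990179, plus strand. Slco2a1 had 10 reads (0.0347 RPKM) in neonatal cells and 229 reads (0.817 RPKM) in adult cells, a 23.6-fold difference (interval, 12.6 to 49.8).

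Hpgd (ENSMUSG00000031613) encodes 15-hydroxyprostaglandin dehydrogenase, the enzyme that starts the breakdown of PGE2. It lies on chromosome 8 between 58773349 and 58799843, plus strand. Hpgd had 0 reads in neonatal cells, where 3 reads would be 0.0244 RPKM, and 31 reads (0.260 RPKM) in adult cells. With 3 reads put in place of 0, the level in neonatal cells was 10.6-fold lower. The lower limit of the exact interval was 8.14-fold. The library with the most cyclooxygenase and Ptges reads was therefore also the library with the most reads of Slco2a1 and Hpgd.

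Over all 10 genes, 7 had a log2 ratio below 0 and 3 above 0, with a median of -1.38. Of the 7, 3 had 0 reads in neonatal cells. The median was 0 over all 37309 genes, of which 15713 had 0 reads in both libraries. Over the 10086 genes that reached 1 RPKM in neonatal or adult cells the median was -0.07, and 55.3% of them had a log2 ratio below 0. That share is over another kind of set than the 7 of 10, as only 5 of the 10 genes reached 1 RPKM. Among those 10086 log2 ratios, that of Ptgs2 was the 29th from the bottom, Ptges the 56th and Ptgs1 the 111th, while Ptgis was the 390th from the top.

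**Figure D4:**
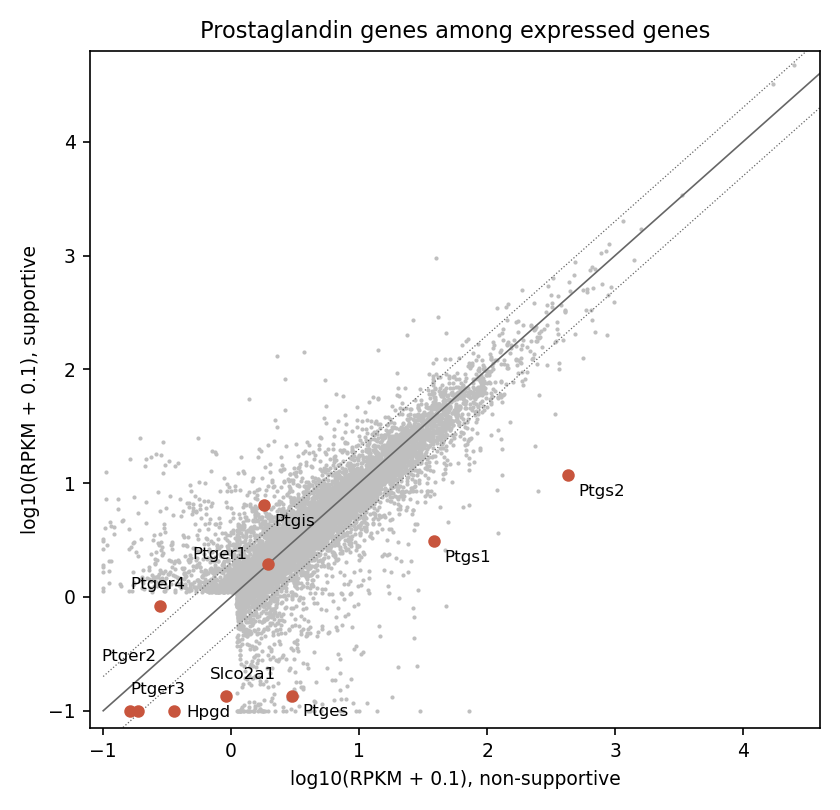
Log10(RPKM + 0.1) of the supportive against the non-supportive library for the 10086 genes that reached 1 RPKM in neonatal or adult cells (grey) and the 10 prostaglandin genes (red). The solid line marks equal values and the dotted lines 2-fold, and Ptgs2 and Ptgs1 lie far below the lines at high levels while Ptger1 lies on the solid one and Ptger2 is the leftmost red point at the bottom.

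The other genes of the prostanoid pathway went in both directions. Of 21 further genes for synthesis, receptors, export and breakdown, 10 reached 1 RPKM in neonatal or adult cells, of which 3 were 2-fold lower (9.27% over all genes) and 2 were 2-fold higher (9.01%) in supportive ISEMFs. Their median log2 ratio was -0.46, against -0.07 over all genes with such an RPKM.

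Among the other synthases, Akr1c18 differed most. It encodes an aldo-keto reductase known as 20-alpha-hydroxysteroid dehydrogenase, which inactivates progesterone and can also form PGF2-alpha. Akr1c18 had 1237 reads (14.3 RPKM) in neonatal cells and 17 reads (0.203 RPKM) in adult cells, a 70.7-fold higher value in supportive ISEMFs (interval, 44.0 to 121.8). The other synthase genes that reached 1 RPKM, the PGE2 synthase Ptges3 and the prostamide synthase gene 2810405K02Rik (named to complete the list), were under 2-fold. Ptges3, which also serves as a cochaperone, had 9.38 RPKM in neonatal and 11.6 in adult cells. The RPKM of Ptges in the same libraries was 0.0358 and 2.90.

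Of the 6 other receptor genes, only Ptgfrn, a regulator that binds the PGF2-alpha receptor, reached 1 RPKM. Its level was 18.6 in neonatal and 8.82 in adult cells, 2.11-fold higher in supportive ISEMFs (interval, 2.03 to 2.19). The prostacyclin receptor Ptgir and the thromboxane receptor Tbxa2r, named after their values were seen, were low but also higher in supportive ISEMFs. Ptgir had 215 and 27 reads, a ratio of 7.74 (interval, 5.17 to 12.0). Tbxa2r had 89 and 2 reads, a ratio of 43.2 (interval, 11.6 to 363). The gene of prostacyclin synthase and the gene of its receptor thus differed in the same direction.

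All 6 genes of the list for export and breakdown reached 1 RPKM in neonatal or adult cells, and 3 of them were 2-fold lower in supportive ISEMFs, against 9.27% of all genes. Abcc4, which encodes a pump that exports prostaglandins, had 1.4997 RPKM in neonatal and 4.19 in adult cells. Slco3a1, a carrier related to Slco2a1, was at 4.50 and 10.7, and the carbonyl reductase gene Cbr3 at 0.682 and 1.77. The most abundant was Ptgr1, a reductase that acts after 15-hydroxyprostaglandin dehydrogenase, with 12.0 RPKM in neonatal and 18.4 in adult cells.

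Of the 22 genes in the list for arachidonic acid release and recycling, 8 reached 1 RPKM in neonatal or adult cells, of which 2 were 2-fold lower (9.27% over all genes) and 1 was 2-fold higher (9.01%) in supportive ISEMFs. The median log2 ratio was -0.60, against -0.07 over all genes. Pla2g4a encodes the cytosolic phospholipase that frees arachidonic acid for the cyclooxygenases. It had 7783 reads (15.3 RPKM) in neonatal cells and 39157 reads (79.2 RPKM) in adult cells, so it was 5.18-fold lower in supportive ISEMFs (interval, 5.05 to 5.31). Anxa1, which encodes annexin A1, a protein known to restrain that phospholipase, was lower too, with 40.3 RPKM against 340.6, an 8.46-fold difference. Lpcat3, which puts arachidonic acid back into membranes, was 2.34-fold higher in supportive ISEMFs, at 4.95 against 2.11.

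**Figure D5:**
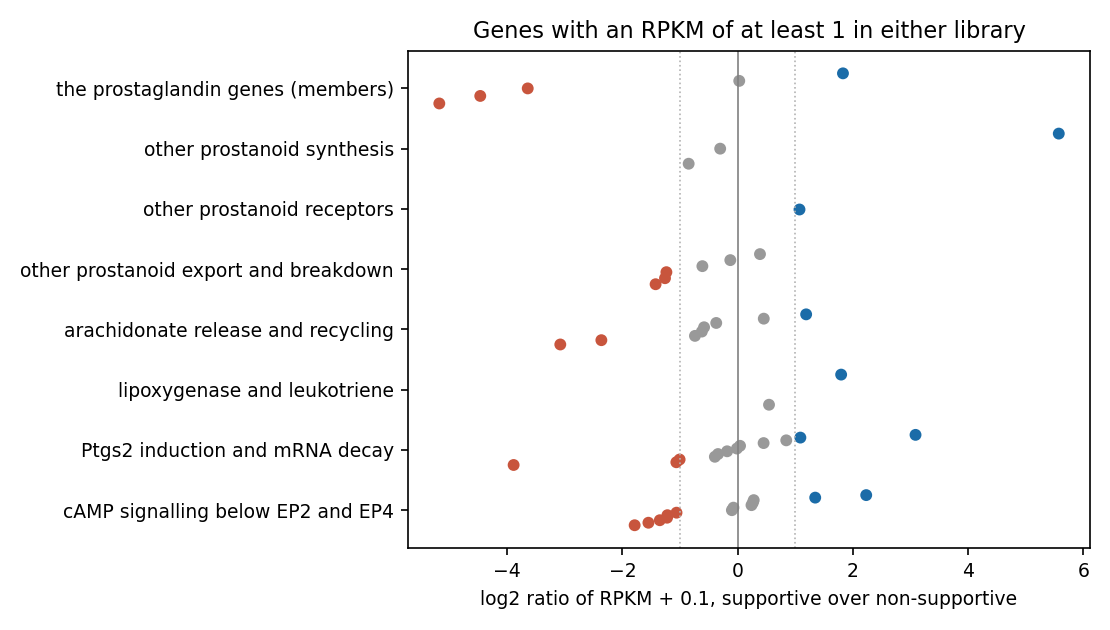
Log2 ratio of RPKM + 0.1, supportive over non-supportive, of the genes that reached 1 RPKM in neonatal or adult cells, by list, with red points 2-fold or more lower, blue points 2-fold or more higher and grey points between (dotted lines at 2-fold, points spread in height only to keep them apart). Of the 5 prostaglandin genes shown, 3 lie at or below -3.64.

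The lipoxygenase branch, which turns arachidonic acid into leukotrienes, was low in both libraries. Of its 16 genes, 2 reached 1 RPKM in neonatal or adult cells. Lta4h, the leukotriene A4 hydrolase gene, had 6.15 RPKM in neonatal and 4.18 in adult cells, and the dipeptidase gene Dpep2 had 1.40 and 0.333. Alox5, named because it encodes the first enzyme of the branch, had 4 and 16 reads.

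Genes known to induce Ptgs2 or to control the decay of its mRNA went in both directions. Of 16 such genes, 12 reached 1 RPKM in neonatal or adult cells, of which 3 were 2-fold lower (9.27% over all genes) and 2 were 2-fold higher (9.01%) in supportive ISEMFs, with a median log2 ratio of -0.10 (-0.07 over all genes). Il1a, the gene of the cytokine interleukin 1 alpha, had 2 reads in neonatal and 218 reads in adult cells, 112-fold lower with an interval from 30.7 to 932. Its receptor gene Il1r1 was at 1.65 RPKM and 3.42, and Elavl1, which encodes the mRNA-stabilizing protein HuR, at 8.12 and 17.1. In the other direction, Egr1, an immediate early factor known to act on the Ptges promoter, had 201.8 RPKM in neonatal and 23.6 in adult cells. Myd88, an adaptor of the interleukin 1 receptor, was at 1.51 and 0.657. Egr1 was 8.54-fold higher (interval, 8.30 to 8.79) in the library where Ptges was lower, and a link between Egr1 and Ptges was not tested.

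Downstream of the cAMP-raising receptors EP2 and EP4, 13 of 28 genes reached 1 RPKM in neonatal or adult cells, of which 6 were 2-fold lower (9.27% over all genes) and 2 were 2-fold higher (9.01%) in supportive ISEMFs, with a median log2 ratio of -0.10 (-0.07 over all genes). The lower genes included all 3 such genes for regulatory subunits of protein kinase A other than Prkar1a. Prkar2a had 14.7 RPKM in neonatal and 50.9 in adult cells, Prkar2b had 4.46 and 10.5, and Prkar1b had 0.553 and 1.81. Prkar1a, the most abundant gene of the list, was at 60.0 and 49.4. The cAMP-degrading phosphodiesterases went both ways, with Pde4a at 2.22 against 4.74, Pde3b at 0.486 against 1.39 and Pde3a at 9.43 against 3.65. The orphan receptor genes Nr4a1 and Nr4a2, which respond early to cAMP, also differed in direction, with RPKM values of 6.50 against 1.30 and 0.741 against 1.86.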

How the data were processed

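RNA of 1 supportive and 1 non-supportive ISEMF culture was sequenced from TruSeq RNA libraries as single-end reads. The authors aligned the reads to mm9 with TopHat2 2.0.4, allowing unique hits, and made the deposited counts per Ensembl gene with HTSeq 0.5.4p3 (versions per the submitters' processing notes). Reads that did not fall to a single gene were left out by the authors, and whether the counting used strand is not given in the sources used here. The authors computed the deposited RPKM values from the union of exons of each gene and the library size, and library sizes of 71463423 (supportive) and 69449374 (non-supportive) reads are implied by them, above the totals counted on genes. The deposited table also holds a log2 ratio, a p-value and an adjusted p-value of the authors' own comparison, and these were not used. A second table with Wnt pathway genes was not used here.

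Log2 ratios were computed on RPKM + 0.1, and genes were counted that reached 1 RPKM in neonatal or adult cells and differed 2-fold. Intervals of ratios were exact at 95%, and a count of 0 was given a floor of 3 reads per library. Since there was 1 library per group and the genes were selected on this contrast, no test was run. Coordinates, exon overlaps and sequences came from GENCODE vM1 and NCBIM37. The genes described and the lists of related genes were chosen with earlier results of these data known. From each list, every gene so counted was named, together with the most abundant one, and for Ptgs2 and Ptgis the 3 protein-coding genes nearest in log2(RPKM + 0.1). Genes named for another reason are marked as such, and a few items that these rules would name are not reported here. Of 29 genes in the cAMP list, 28 were used, because Pde4d has more than 1 identifier in the table. Alternatives were pseudocounts of 1 and 0.001, other RPKM minimums, a 4-fold threshold, library sizes from TMM (edgeR 4.0.16) and from size factors (DESeq2 1.42.0), centring on the median, and shares of reads in place of RPKM. The calculations, in Python 3.11.15 with scipy 1.17.1, were tested on simulated data.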

Additional observations from a re-analysis of the deposited data

How the results depend on the processing

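A pseudocount added to both values cannot change the sign of a log2 ratio, and none of the 10 changed sign under the alternative library sizes. Over the 5 alternatives of pseudocount and library size, the log2 ratio of Ptgs2 ranged from -5.19 to -5.08 and that of Ptges from -6.30 to -1.91. The ranges were -8.03 to -0.33 for Hpgd, -6.48 to -0.12 for Ptger3, -5.99 to -0.09 for Ptger2 and -4.52 to -0.81 for Slco2a1. Without a minimum RPKM, 5 of the 10 genes were 2-fold lower (Hpgd and Slco2a1 added) and 2 were higher (Ptger4 added), against 5.05% and 4.76% of all genes, and at 4-fold 3 were lower and 0 higher, against 3.29% and 3.24%. Of the other prostanoid genes, 1 of 5 was lower with a minimum RPKM of 5, against 9.21% of all genes. At 4-fold 0 of 10 were lower and 1 of 10 was higher, against 3.29% and 3.24%. Without a minimum 4 of 21 were higher (4.76% of all genes), and with a pseudocount of 1 it was 1 of 10 (5.73%). As a share of reads instead of RPKM, Ptgs2 made 73.1% (supportive) and 88.5% (non-supportive) of the cyclooxygenases, Ptger1 63.7% of the EP receptors in the supportive library, and Ptger4 36.3% and 11.6%. Settings chosen after seeing the data were GENCODE vM1 lengths, with 71.8% and 87.8% for Ptgs2 and 76.8% for Ptges among the terminal synthases in the non-supportive library, and reads for Ptges, with 1.66% and 83.5%. No paired analysis was possible because each population had 1 library. Genes with under about 30 reads, such as Ptger2, Ptger3 and the supportive values of Ptges and Slco2a1, are limited by depth.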

Other observations

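Over the 2 libraries, the protein-coding genes nearest to Ptgs2 in log2(RPKM + 0.1) included Grem1 and Tnc, at Euclidean distances of 0.90 and 1.20. Grem1, which encodes the BMP antagonist gremlin 1, had 8.48 RPKM in neonatal and 251.6 in adult cells. Tnc, the gene of the matrix protein tenascin C, was at 21.1 and 236. The genes nearest to Ptgis were Magi1, A430110N23Rik and Gata6, all within 0.06, with RPKM values between 6.15 and 6.36 in neonatal and between 1.76 and 1.78 in adult cells. With 2 points per gene, many genes can share such a pattern.

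Of the marker lists, mast cell and endothelial genes stayed under 1 RPKM in both libraries. The epithelial list had 1 gene above it, Krt20, with 0.0799 in neonatal and 3.13 in adult cells. The tuft cell list had Dclk1, with 9.41 and 2.05, and the list of neurons and glia had S100b, with 6.69 and 0.116. The other genes of these lists stayed under 1 RPKM. Some of them, named for their direction, went the other way, with 159 and 18 reads for the epithelial Cdh1 and 4 and 23 for the neuronal Elavl4. No cell type is read from these single genes. Dpep1, a dipeptidase gene of the leukotriene list named after its values were seen, had 0 reads in neonatal and 153 reads in adult cells. It was 52.5-fold lower with 3 reads put in place of 0, and the lower limit of the exact interval was 42.2-fold.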
